A study of Mus musculus with 3 samples.

Results

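The genes described here are 8 factors that transcribe replication-dependent histone genes or cut and trim their mRNAs, namely Slbp, Npat, Casp8ap2, Lsm10, Lsm11, Eri1, Zfp473 and Coil. They were taken from a fixed list of gene symbols, chosen with earlier results of these data known. All 8 were among the 24421 genes of the deposited read counts. Averaged over the 3 libraries each had 10 reads or more, as did 16670 genes in all. Total RNA, depleted of ribosomal RNA, was sequenced from EL16.7, a female mouse ES cell line (strain F2:129S1/CastEiJx 129S1), with 1 library per condition. All cells grew with LIF on γ-irradiated mouse embryonic fibroblasts (MEFs) from Tg(DR4)1Jae/J mice, received a lentiviral shRNA, and underwent 2 days of selection in puromycin at 2 μg/ml. The control library came from wild-type cells with a scrambled shRNA. The libraries here called KD-1 and KD-2 came from NUP153 knockdown cells with shRNA-1 or shRNA-2, respectively. The comparisons address how far the mRNAs of these factors differ when the nuclear pore protein NUP153 is reduced.

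Most mRNAs end in a poly(A) tail, but the mRNAs of replication-dependent histones end in a short stem-loop. NPAT and FLASH (encoded by Casp8ap2) gather at histone gene clusters in a nuclear structure named the histone locus body, where transcription and 3′ processing take place during S phase. The stem-loop binding protein SLBP holds the stem-loop, the U7 snRNP with its special subunits LSM10 and LSM11 pairs with the RNA downstream of it, and the exonuclease ERI1 trims the end and takes part in the decay of the mRNA. ZFP473 (ZFP100) bridges SLBP and the U7 snRNP, and coilin (Coil) is the scaffold of Cajal bodies, in which small nuclear RNPs mature. In ES cells, whose cycle is mostly S phase, the demand for histones is high.

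The stem-loop that SLBP and ERI1 bind is shown for the histone gene with the most reads in each sequence class, not corrected for length, with the stem-loop of 16 bases in capitals. Of the 68 histone genes counted, 35 had a GENCODE transcript with the letters GGNNCTTTTCAGNNCC, and 26 of these shared the first of the sequences given here, 7 the second and 2 the third. A gene without these letters may only have a shorter annotated transcript. The sequences lie on the plus strand of GRCm38.
Hist1h1d, chr13:23555782-23555807: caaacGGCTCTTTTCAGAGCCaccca
Hist1h4d, chr13:23581945-23581970: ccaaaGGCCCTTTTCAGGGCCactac
Hist1h4b, chr13:23757361-23757386: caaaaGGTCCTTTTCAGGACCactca
They belong to transcripts of Hist1h1d, a linker histone gene, and of Hist1h4d and Hist1h4b, which encode histone H4.

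LSM10 and LSM11 replace canonical Sm proteins on the U7 snRNA, the guide RNA of the cleavage reaction, which is encoded by Rnu7 at chr6:124741225-124741286 on the minus strand. Its sequence is printed with the Sm site of 11 bases in capitals, around which the ring with LSM10 and LSM11 forms.
Rnu7: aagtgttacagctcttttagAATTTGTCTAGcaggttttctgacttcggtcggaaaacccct
Rnu7 is 62 bases long and was listed at 0 reads in all 3 libraries. Its level was therefore not measured here.

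Libraries held 69839336 to 85258834 reads on genes, and reads were scaled by the upper quartile of each library. Nup153, the targeted gene, had 27870 reads in control against 16451 and 11126 in KD-1 and KD-2, so that its log2 ratio to control was -0.99 for KD-1 and -1.43 for KD-2. All 10 ES cell markers examined had reads in each library, with 32962 to 45092 reads for Pou5f1 and 23802 to 28219 for Sox2, which encode core pluripotency factors. Utf1, a gene of undifferentiated cells, was past 1.5-fold in both knockdown libraries (log2 ratios of 0.69 and 1.17). It had only 127 reads in control against 240 and 308 in KD-1 and KD-2. Zfp42 (-0.70) and Tdgf1 (-0.61) were past 1.5-fold on the lower side in KD-2. In that library 7 of the 10 ES markers were below control and 3 above, with a median of -0.30. The summed scaled reads of the ES markers were 1.08 times the control level in KD-1 against 0.732 times in KD-2, sums in which abundant genes weigh most. Markers of the MEF feeder cells were also present. The summed scaled reads of 10 feeder markers were 0.489 times the control level in KD-1 against 1.65 times in KD-2, and 10 of 10 were lower than control in KD-1, whereas 10 of 10 were higher in KD-2. The furthest were Postn (-2.01 in KD-1) and Twist2 (1.30 in KD-2), both fibroblast genes. The part of feeder RNA in the results for the 8 factors and for the other gene lists was not tested. Fewer cells of a type and less RNA per cell cannot be told apart in such libraries. With 1 library per condition no spread between replicates was measured. A gene is described as past the threshold when its scaled reads differed more than 1.5-fold, and intervals are exact 95% intervals that cover the counting of reads only.

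**Figure D1:**
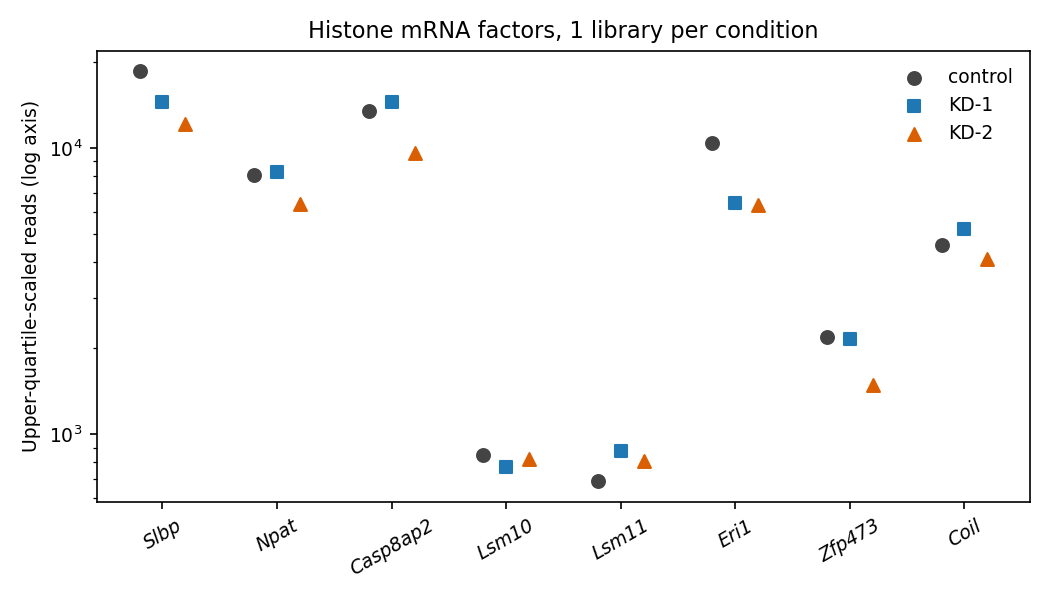
Upper-quartile-scaled reads (log axis) of the 8 factors in control (circles), KD-1 (squares) and KD-2 (triangles), with 1 point per library. Eri1 and Slbp were higher in control than in either knockdown library, and Lsm11 was lower in control than in either.

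Eri1 was the factor that differed most from control, and it differed in the same way in both knockdown libraries. Slbp was also lower than control in both, by less in KD-1. The others lay within 1.5-fold of control in both, with Npat, Casp8ap2 and Zfp473 lower than control in KD-2 and close to it in KD-1, and Lsm11 higher in both. In KD-1, 1 of the 8 factors was past the threshold, beside 14.2% of all 16670 genes in either direction and 5.62% on the lower side. In KD-2 it was 2 of 8, beside 27.3% in either direction and 10.2% on the lower side. That count was 1 with TMM, 1 with DESeq2's size factors and 0 with reads on all genes. Each factor past the threshold in KD-1 or KD-2 was lower than control. In KD-2, 7 of the 8 factors were below control with upper-quartile scaling, beside 51.7% of all genes. With reads on all genes it was 5 of 8. The median log2 ratio of the 8 factors was 0.0060 in KD-1, with 0.02 over all genes, and its sign turned with each other scaling. The median in KD-2 was -0.42, with -0.02 over all genes. Summed over the 8 factors, scaled reads were 0.895 times the control level in KD-1 against 0.708 times in KD-2, where the sum of the ES markers was lower and that of the feeder markers higher than control. Both comparisons share the control library.

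Eri1, on chromosome 8 from 35465253 to 35496196 (GRCm38, minus strand), encodes the 3′ exonuclease that binds the stem-loop beside SLBP. It had 9638 reads in control against 6971 and 6298 in KD-1 and KD-2, which are 10415, 6429 and 6319 scaled reads. Control was the highest library, and KD-1 and KD-2 were nearly level with each other. The log2 ratio was -0.70 in KD-1 (interval -0.74 to -0.65) and -0.72 in KD-2 (-0.77 to -0.67), so that Eri1 stood at 61.7% and 60.7% of control. KD-2 and KD-1 differed from each other by a log2 ratio of -0.02 (-0.07 to 0.02), an interval that includes 0 with upper-quartile scaling. The ratio lay above that interval with each other scaling, at 0.03 with TMM, 0.08 with DESeq2's size factors and 0.14 with reads on all genes. The 10 feeder markers had a median of 1.68 between the same libraries with upper-quartile scaling. The part of feeder RNA in the reads of Eri1 was not tested. Of all genes, 3.89% had a lower ratio than Eri1 in KD-1, against 5.28% in KD-2. Genes lower than control by more than 1.5-fold in both libraries numbered 165, which is 0.99% of all genes, and Eri1 was the only one of the 8 factors among them. When libraries were scaled by their reads on all genes, Eri1 in KD-2 was at -0.56 and under the threshold.

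Slbp, on chromosome 5 from 33634952 to 33652574 (minus strand), encodes the protein that holds the stem-loop from processing to translation. It had 17179 reads in control against 15685 and 12112 in KD-1 and KD-2, or 18564, 14466 and 12153 scaled reads. Control was the highest library and KD-2 the lowest. The log2 ratio was -0.36 in KD-1 (-0.39 to -0.33) and -0.61 in KD-2 (-0.64 to -0.58), and the ratio of KD-2 to KD-1 was -0.25 (-0.29 to -0.22). Slbp was past the threshold in KD-2 with upper-quartile scaling. It was not past it with TMM (-0.57), DESeq2's size factors (-0.57) or reads on all genes (-0.45), while its direction was the same in each.

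**Figure D2:**
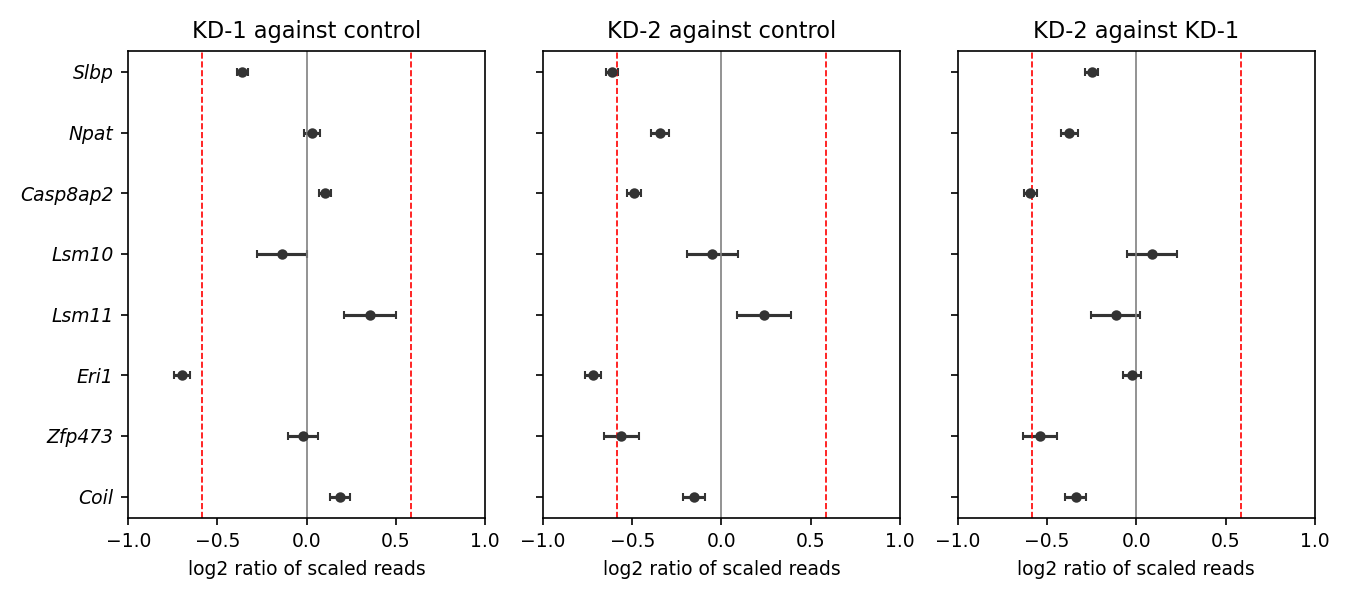
Log2 ratios of scaled reads for the 8 factors in KD-1 against control, KD-2 against control and KD-2 against KD-1, with exact 95% intervals for the counting of reads and dashed lines at 1.5-fold. Eri1 lay at -0.70 and -0.72 against control and at -0.02 between the knockdown libraries with this upper-quartile scaling.

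Npat and Casp8ap2, for factors of the histone locus body, were near the control level in KD-1 but lower in KD-2. Npat, on chromosome 9 from 53537047 to 53574342 (plus strand), encodes the target of cyclin E and CDK2 that activates histone transcription. Its reads were 7483 in control against 8963 and 6350 in KD-1 and KD-2, or 8086, 8266 and 6371 scaled reads. Control and KD-1 were nearly level and KD-2 was the lowest. Its log2 ratio was 0.03 in KD-1 (-0.01 to 0.08), which DESeq2's size factors moved to -0.03, and -0.34 in KD-2 (-0.39 to -0.30).

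Casp8ap2, on chromosome 4 from 32615451 to 32653265 (plus strand), encodes FLASH, which binds LSM11 and recruits the cleavage complex. It had 12522 reads in control against 15766 and 9588 in KD-1 and KD-2, or 13531, 14541 and 9620.4 scaled reads. KD-1 was the highest library and KD-2 the lowest. Relative to control the log2 ratio was 0.10 in KD-1 (0.07 to 0.14) and -0.49 in KD-2 (-0.53 to -0.45). Between the knockdown libraries it was -0.60 (-0.63 to -0.56), past the threshold, and Casp8ap2 was the only one of the 8 factors to be so in that comparison, beside 30.1% of all genes in either direction and 13.9% on the lower side. With the other 3 scalings it lay between -0.54 and -0.43 there, under the threshold.

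Coil, on chromosome 11 from 88970252 to 88991613 (plus strand), had 4232 reads in control against 5644 and 4098 in KD-1 and KD-2, or 4573, 5205 and 4112 scaled reads. KD-1 was the highest library, and control and KD-2 were closer to each other. Coil thus had a log2 ratio of 0.19 in KD-1 (0.13 to 0.24) and -0.15 in KD-2 (-0.22 to -0.09). The direction in KD-2 depended on the scaling, since reads on all genes gave 0.0044. Exons of Coil overlap those of the counted gene 2210409E12Rik on the same strand over 5.60% of their length.

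Zfp473, on chromosome 7 from 44731480 to 44751050 (minus strand), had 2029 reads in control against 2345 and 1481 in KD-1 and KD-2, or 2193, 2163 and 1486 scaled reads. Control and KD-1 were level and KD-2 was lower. In log2 terms the ratio was -0.02 in KD-1 (-0.11 to 0.07) and -0.56 in KD-2 (-0.66 to -0.46), just inside the threshold. Exons of Zfp473 overlap those of Vrk3 on the opposite strand over 2.04% of their length.

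Of the genes for the U7-specific subunits, Lsm11 was higher than control in both libraries, while the intervals of Lsm10 included 0 with upper-quartile scaling. Lsm10, on chromosome 4 from 126096623 to 126098584 (plus strand), had 785 reads in control against 836 and 816 in KD-1 and KD-2, or 848, 771 and 819 scaled reads. The 3 libraries were close together. The log2 ratio was -0.14 in KD-1 (-0.28 to 0.0046) and -0.05 in KD-2 (-0.19 to 0.09), and reads on all genes turned the latter to 0.11. In KD-1 the other scalings moved it further from 0, to between -0.20 and -0.15. Lsm11, on chromosome 11 from 45928269 to 45944935 (minus strand), had 636 reads in control against 953 and 808 in KD-1 and KD-2, or 687, 879 and 811 scaled reads. Control was the lowest library. Lsm11 had a log2 ratio of 0.35 in KD-1 (0.21 to 0.50) and 0.24 in KD-2 (0.09 to 0.39), higher than control and within 1.5-fold with each of the 4 scalings. Genes higher by more than 1.5-fold in both made up 3.64% of all genes, and none of the 8 factors was among them.

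**Figure D3:**
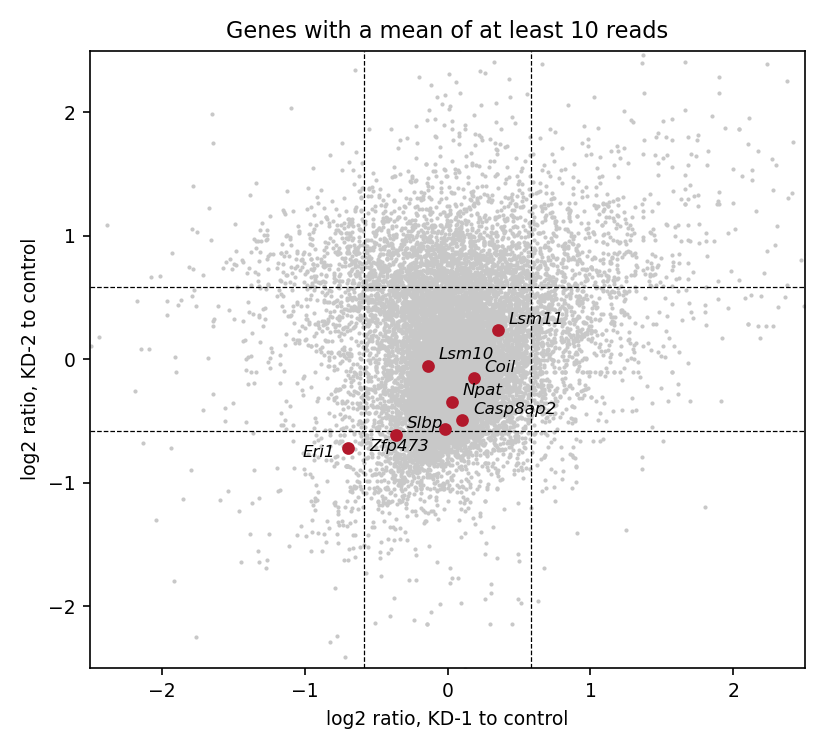
Log2 ratio to control in KD-1 (x axis) and in KD-2 (y axis) for genes averaging 10 reads or more (grey points, of which 57 lie outside the plotted range) and for the 8 factors (red, named), with dashed lines at 1.5-fold. Eri1 is the only named point past the lower line on both axes.

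Of the 8 factors, Slbp, Lsm10, Eri1 and Zfp473 were below the control level in both knockdown libraries, and 1, Lsm11, was above it in both. Over all genes, 27.0% were below in both and 28.4% above in both. For Lsm10 this direction was lost with reads on all genes, and with upper-quartile scaling its intervals included 0, as did that of Zfp473 in KD-1. Both knockdown libraries were also compared with control as a group by edgeR's quasi-likelihood test. It has 1 residual degree of freedom, which comes from KD-1 and KD-2 alone. Dispersion was estimated from all genes together, so the SE and p of a gene are not its own spread between KD-1 and KD-2. Eri1 and Coil both had an SE of 0.42, while their log2 ratios of KD-2 to KD-1 were -0.02 and -0.34. The quasi-likelihood test called 1 of 16670 genes, or 0.006%, which was Mir6236, while 211 genes (1.27%) had an unadjusted p under 0.05. DESeq2's Wald test called 2 genes, Ipw and Taf7l, and 86 had an unadjusted p under 0.05. None of the 8 factors was called by either test. Eri1 had the lowest unadjusted p among the factors in edgeR's quasi-likelihood test, 0.0887, with a log2 fold change of -0.71 (SE 0.42, adjusted p = 1.00), lower in 2 of 2 libraries. For Slbp the log2 fold change was -0.48 (SE 0.45), and for Lsm11 it was 0.30 (SE 0.50). By the same test Nup153 itself, at -1.19 (SE 0.46, unadjusted p = 0.00881), was not called either.

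Levels of different genes were compared as RPKM, reads scaled to the length of a gene's exons and to the reads on genes of the library. In the control library Slbp was at 39.1 RPKM and Casp8ap2 at 25.4, followed by Coil and Npat, both at 16.6. Eri1 was at 15.0 RPKM, Lsm10 at 11.5, Zfp473 at 2.79 and Lsm11 at 1.36. Slbp thus ranked first and Lsm11 last, and both kept that rank in KD-1 and KD-2. The level of Eri1 was 9.22 RPKM in KD-1 against 10.2 in KD-2, so that Lsm10, at 10.4 and 12.4, was above it in both. Coil and Npat were level in control, and Coil was 1.12 times the RPKM of Npat in KD-1 and 1.15 times in KD-2. The exon lengths are those of all annotated exons joined, and a gene expressed as a short isoform has its level understated.

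The ratio of reads of 2 genes within 1 library does not depend on how libraries are scaled. Reads of Slbp per read of Eri1 numbered 1.78 in control (interval 1.74 to 1.83), 2.25 in KD-1 (2.19 to 2.31) and 1.92 in KD-2 (1.87 to 1.98). The intervals do not overlap, and Slbp was highest relative to Eri1 in KD-1. Reads of Lsm10 per read of Lsm11 numbered 1.23 in control (1.11 to 1.37), 0.877 in KD-1 (0.798 to 0.964) and 1.01 in KD-2 (0.915 to 1.11). Control was the highest, and the interval of KD-2 overlaps those of control and KD-1, which do not overlap each other. Zfp473 also had fewer reads per read of Lsm11, with 3.19 in control (2.92 to 3.49), 2.46 in KD-1 (2.28 to 2.66) and 1.83 in KD-2 (1.68 to 2.00).

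As a share of the reads of the 8 factors, Slbp or Casp8ap2 was first in each library. The share of Eri1 was 17.7% in control against 12.2% and 15.2% in KD-1 and KD-2, and that of Slbp was 31.5% against 27.4% and 29.1%. For Casp8ap2 it was 23.0% in control against 27.6% and 23.1%, so that in KD-1 Casp8ap2 and Slbp held nearly equal shares. Npat was at 13.7% in control, below Eri1, against 15.7% and 15.3% in KD-1 and KD-2, above it.

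Npat starts 307 bases from Atm, which encodes a DNA damage kinase and runs in the opposite direction. Atm had 16305 reads in control against 17542 and 11776 in KD-1 and KD-2, and log2 ratios of -0.12 in KD-1 (-0.15 to -0.09) and -0.58 in KD-2 (-0.61 to -0.54). Reads of Npat per read of Atm numbered 0.459 in control (0.446 to 0.472), 0.511 in KD-1 (0.498 to 0.524) and 0.539 in KD-2 (0.523 to 0.556). Both genes were lowest in KD-2, and Npat was lower by less than its neighbour.

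**Figure D4:**
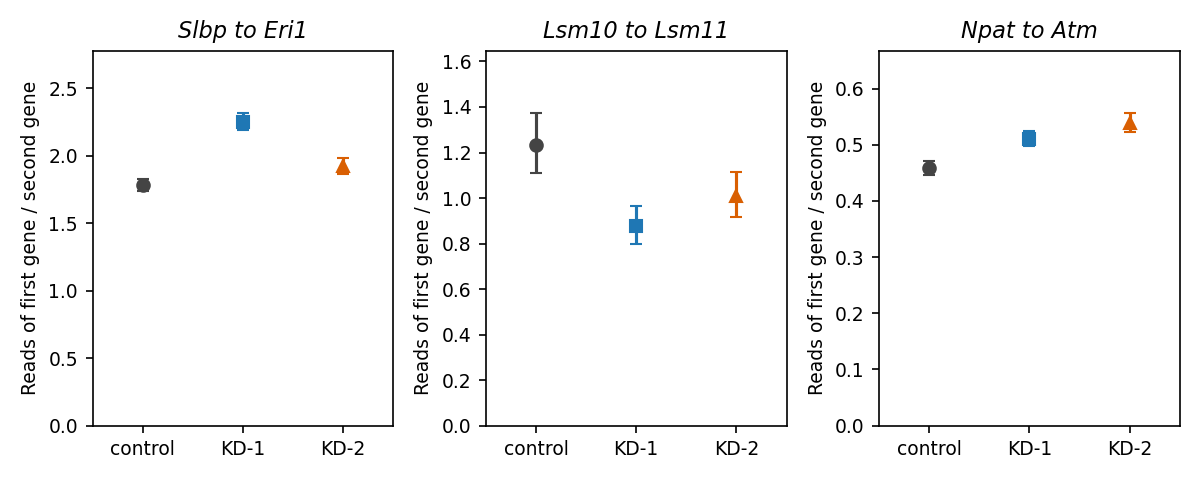
Reads of the first gene divided by reads of the second within each library, for Slbp and Eri1, Lsm10 and Lsm11, and Npat and Atm, with exact 95% intervals for the counting of reads. The Slbp to Eri1 ratio ran from 1.78 in control to 2.25 in KD-1, and the Lsm10 to Lsm11 ratio from 1.23 in control to 0.877 in KD-1.

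Promoters are shown for Slbp, Npat and Casp8ap2, which are known for roles in S phase. RefSeq windows (GRCm38.p6) of 300 bases were found and searched for 7 of the 8 factors, all but Eri1, and run from 250 bases before the RefSeq start of the gene to 50 after it. For Casp8ap2, Lsm10, Coil and Zfp473 that start lies inside the GENCODE gene whose ends are given here. The windows of Casp8ap2 and Lsm10 cover the outermost GENCODE start, and those of Coil and Zfp473 do not. Capitals mark CCAAT, the letters bound by NF-Y, and TTTGGCGC and TTCCCGC, which are E2F-type letters. Each was searched on both strands, and the marked matches do not overlap each other.
Slbp, chr5:33652525-33652824, minus strand: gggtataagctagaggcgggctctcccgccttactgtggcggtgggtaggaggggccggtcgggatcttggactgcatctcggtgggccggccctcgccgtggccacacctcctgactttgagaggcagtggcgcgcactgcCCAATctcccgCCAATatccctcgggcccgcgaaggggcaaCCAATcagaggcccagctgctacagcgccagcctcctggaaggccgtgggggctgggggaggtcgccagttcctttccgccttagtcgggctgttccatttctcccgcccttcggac
Npat, chr9:53536797-53537096, plus strand: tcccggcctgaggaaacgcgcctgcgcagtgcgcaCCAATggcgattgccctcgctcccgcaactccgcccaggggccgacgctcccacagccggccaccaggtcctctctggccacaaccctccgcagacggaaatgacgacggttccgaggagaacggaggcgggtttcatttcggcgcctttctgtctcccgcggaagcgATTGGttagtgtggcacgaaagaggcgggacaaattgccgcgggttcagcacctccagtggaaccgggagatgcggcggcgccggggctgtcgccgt
Casp8ap2, chr4:32615220-32615519, plus strand: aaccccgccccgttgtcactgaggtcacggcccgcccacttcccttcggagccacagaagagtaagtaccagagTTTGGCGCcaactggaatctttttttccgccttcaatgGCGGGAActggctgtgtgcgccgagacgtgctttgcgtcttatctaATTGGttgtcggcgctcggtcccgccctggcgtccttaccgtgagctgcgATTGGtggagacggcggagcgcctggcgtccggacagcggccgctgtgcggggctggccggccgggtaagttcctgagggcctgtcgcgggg
The Slbp window held 3 matches to CCAAT, and those of Npat and Casp8ap2 held 2 each. The first match in the Npat window also lies in the window of Atm, on its other strand. Among the 7 factors searched, Casp8ap2 alone held TTTGGCGC and TTCCCGC, with 1 match to each. Among all windows of this length, 37.4% held CCAAT, 0.514% held TTTGGCGC and 4.60% held TTCCCGC. The windows of Lsm11 and Coil held no match to any of the 3, and the windows of Lsm10 and Zfp473 held at most 1 match to CCAAT. A match describes the letters of a window and is not a measured binding site.

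Partners of the 8 factors were examined in lists of genes, each described by counts and medians. These lists too were chosen with earlier results of these data known. Of 5 genes for the Sm proteins that share the U7 ring with LSM10 and LSM11, none was past the threshold in KD-1, where Snrpg was furthest from control at -0.23. In KD-2, Snrpd3 (-0.61), Snrpe (-0.76) and Snrpg (-0.78) were past it on the lower side and Snrpf on the higher side. Snrpf had 191 reads in control against 236 and 691 in KD-1 and KD-2, a log2 ratio of 1.75 in KD-2, and 65.9% of its exon length overlaps Ccdc38 on the opposite strand. With the other scalings 2 of the 5 were past the threshold on the lower side, and Snrpf remained past it on the higher side. Of 9 genes for the cleavage complex that cuts histone pre-mRNA and polyadenylated mRNA, 1 was past the threshold in KD-1 but 0 in KD-2. The former was Cstf2t (-0.59), an autosomal relative of the cleavage stimulation factor gene Cstf2, and in KD-2 Cpsf2, a subunit of the cleavage core, was furthest from control at -0.48.

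Among 10 genes for cap binding, export and translation of histone mRNAs, 0 were past the threshold in either library. The furthest were Srrt (0.16 in KD-1), which encodes the cap complex partner ARS2, and Ncbp1 (-0.44 in KD-2), a cap-binding subunit. Among 13 genes for histone mRNA decay, 0 were past the threshold in KD-1, where Zcchc11, a uridylyl transferase gene, was highest at 0.49. In KD-2, 4 were past it, all lower, with Lsm3, a subunit of the LSM ring on decaying mRNA, furthest at -0.78, and 1 with reads on all genes. Of 12 genes for histone transcription and supply, 0 were past the threshold in KD-1, with Trrap, a cofactor of histone acetyltransferases, furthest at 0.52. In KD-2 2 of them were past it, both lower, with the histone chaperone gene Nasp furthest at -0.77.

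Among 7 genes that govern SLBP turnover, 0 were past the threshold in KD-1, where the casein kinase gene Csnk2a2 was furthest at 0.30. In KD-2 it was 1, the cyclin A gene Ccna2 at -0.60, and 0 with the other scalings. For 13 Cajal body and snRNP assembly genes, 0 were past it in KD-1, with Ice2 furthest at 0.25, and 2 in KD-2, both lower, with Gemin2, for a subunit of the SMN complex, furthest at -0.77, and 1 with reads on all genes. Among 20 S phase genes, 0 were past the threshold in KD-1 but 8 in KD-2, all lower, with 3 to 6 under the other scalings. The median log2 ratio of the S phase genes was -0.12 in KD-1, with Rfc4, a clamp loader gene, furthest at -0.29. In KD-2 the median was -0.55, with Pola1, a subunit gene of DNA polymerase alpha, furthest at -0.90. There 20 of 20 were below control, beside 51.7% of all genes with upper-quartile scaling. In the same library the summed ES markers were at 0.732 and the summed feeder markers at 1.65 times control. Under the 4 scalings the S phase median in KD-2 lay between -0.55 and -0.40, and the median of the 8 factors between -0.42 and -0.26. The one-sided shares of all genes given above for the 8 factors apply to these lists too.

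The mRNAs that these factors make and remove, those of replication-dependent histones, followed a different order of libraries. Of 58 histone genes averaging 10 reads or more, 2 were past the threshold in KD-1, both higher, beside 8.63% of all genes on that side. In KD-2, where the feeder markers were also higher, 44 were past it, all higher, beside 17.1% of all genes on that side. The median log2 ratio was 0.06 in KD-1 against 1.15 in KD-2. With the other scalings it ran from -0.01 to 0.05 in the former library and from 1.18 to 1.30 in the latter. Of the 58, 54 were above control in KD-2, and Hist2h2bb, with 81513 reads in control against 97877 and 61903 in KD-1 and KD-2, was the lowest at -0.50. Hist1h2bn, an H2B gene, was furthest in KD-2, with 7126 reads in control against 8387 and 38056 in KD-1 and KD-2, a log2 ratio of 2.31. Hist1h1t and Hist1h2aa, known as testis histone genes, were past the threshold in both libraries, Hist1h1t at 1.59 and 1.07 and Hist1h2aa at 0.79 and 1.53. The genes whose stem-loops are printed above had log2 ratios in KD-2 of 0.31 (Hist1h1d), 1.58 (Hist1h4d) and 1.90 (Hist1h4b). Of 27 tested genes with the stem-loop letters in their transcripts, 21 were past the threshold in KD-2 (median 1.05), as were 23 of 31 without them (median 1.17). All histone genes together took 0.498% of the reads on genes in control against 0.510% and 0.915% in KD-1 and KD-2. Eri1 was at a similar distance from control in both knockdown libraries with upper-quartile scaling. Most histone genes were near control in KD-1 and past the threshold in KD-2. A link between Eri1 and the histone mRNAs was not tested. Near-identical histone copies share reads, which can be lost or split in counting. Total RNA was sequenced, so that mRNAs with and without a poly(A) tail were both counted and not told apart.

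Genes with the pattern most like a factor were sought among 12743 genes averaging 100 reads or more, by the distance between the pairs of log2 ratios to control. For Eri1 the nearest were Crip1, at a distance of 0.0721, Slfn8 at 0.0782 and Lad1 at 0.101, and 2 genes lay within 0.1. For Slbp they were Nuf2, Tex11 and Sf3b6, at up to 0.0261, and 61 genes lay within 0.1. For Casp8ap2 they were Gm14403, Uhrf1 and Gm17066, at up to 0.0098, and 361 genes lay within 0.1. Fewer genes of any kind lie as far from control as Eri1, so these numbers of neighbours are not compared between factors. Each distance rests on 3 libraries. Slfn8 had 110 to 164 reads in a library and Lad1 194 to 311, so counting error also limits their ranks.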

How the data were processed

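RNA-Seq libraries of 3 conditions were analysed. The values the authors deposited are counts of reads on each gene, not normalized. According to the submitters' processing notes and the methods, reads were trimmed with Trim Galore 0.4.1 and mapped with TopHat2 2.1.1 to mm10 (GRCm38). The notes name HTSeq as the counter and the methods featureCounts, and the strand setting is not given in the sources used here. Summary lines (reads on no gene, 21.5% to 24.1% of a library, or on several, 1.45% to 1.65%) were left out.

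Counts were scaled by upper quartile, which the study names for its scaling of library sizes. Log2 ratios were computed with a pseudocount of 0.5 scaled reads for genes averaging 10 reads or more, with exact Clopper-Pearson intervals of 95%. The study also removed unwanted variation with RUVseq and fixed its dispersion from spike-ins, neither of which was done here, so that no p-value was computed between single libraries. Both knockdown libraries were compared with control with edgeR 4.0.16, at an adjusted p (Benjamini-Hochberg) under 0.05. DESeq2 1.42.0 served as an alternative. The fits were tested on simulated data. R 4.3.3, Python 3.11.15, scipy 1.17.1 and pandas 2.3.3 were used. Positions and exon lengths came from GENCODE M21, in which 23334 gene symbols (95.5%) matched once. Alternatives were other scalings, pseudocounts, minimum means and a fold of 2. The 8 factors and the gene lists were chosen with earlier results of these data known. From each list of partners, genes past the threshold in both knockdown libraries in 1 direction were named, or else the gene furthest from control in each. Snrpd3, Snrpe, the histone genes with printed stem-loops, Hist1h2bn, Hist2h2bb, Pou5f1, Sox2, Zfp42, Tdgf1, Mir6236, Ipw and Taf7l were chosen after their values were seen. Likeness was examined for the 3 factors whose level ranged most.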

Additional observations from a re-analysis of the deposited data

Results flagged for a closer look

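Casp8ap2 and Coil lay on opposite sides of control in the knockdown libraries, with counting intervals clear of 0 on both sides. Casp8ap2 had a log2 ratio of 0.10 for KD-1 and -0.49 for KD-2. Coil had 0.19 for KD-1 and -0.15 for KD-2, and with reads on all genes the latter was 0.0044. With 1 library per condition these differences were not tested.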

How the results depend on the processing

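With a fold above 2, 0 of the 8 factors were past the threshold in each of the 3 comparisons, and the genes past it numbered 770 in KD-1, 1212 in KD-2 and 1839 between the knockdown libraries. In KD-2, 1 factor was past 1.5-fold with TMM, 1 with DESeq2's size factors and 0 with reads on all genes, and between the knockdown libraries it was 0 with each of these. The other counts of factors were the same as reported. In KD-1, 4409 genes were past 1.5-fold with a minimum mean of 1 read. With a minimum mean of 100 reads it was 1028 genes in KD-1, 2852 in KD-2 and 3318 between the knockdown libraries. With upper-quartile scaling 60.5% of the genes past 1.5-fold in KD-1, 62.6% in KD-2 and 53.7% between the knockdown libraries were higher. DESeq2's size factors gave 51.5%, 68.5% and 67.1%, TMM gave 58.1%, 69.0% and 61.2%, and reads on all genes gave 59.5%, 82.8% and 74.1%. The last shifted the median of all genes by 0.16 in KD-2 and by 0.17 between the knockdown libraries, and DESeq2's size factors by 0.10 in the latter. The group test called 2 genes with the Wald test, 0 with DESeq2's size factors, 2 with every gene with a read and 0 with reads on all genes, and adjusted p-values of the 8 factors were 1.00 under each. Against KD-1, the KD-2 value of Eri1 was above 0 with 3 scalings, up to 0.14 with reads on all genes. A larger fold or minimum mean leaves fewer genes by construction, and for the other settings the cause was not tested. Leaving out KD-1 or KD-2 from the group leaves no residual degree of freedom, and the values are then those of the single libraries. No paired analysis was possible because each condition has 1 library. Precision is limited most for Lsm10 and Lsm11, which had 785 to 836 and 636 to 953 reads.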
